A study of Mus musculus with 6 samples.

Results

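TNF receptor superfamily genes were followed in RNA-seq of neutrophils sorted from the uteri of mice kept in extra oxygen or in ordinary air. The set held 9 genes, chosen by name and matched by Ensembl ID among the 43432 gene IDs counted: the TNF receptors Tnfrsf1a and Tnfrsf1b, the death receptors Fas and Tnfrsf10b, the TRAIL decoy receptors Tnfrsf22 and Tnfrsf23, the lymphotoxin beta receptor Ltbr, the herpesvirus entry mediator Tnfrsf14, and Cd40. All 9 passed the filter on low counts and were tested among 12908 genes. The hyperoxia group had 3 libraries from mice housed in a chamber at 60% oxygen for 10 days, between postnatal day 18 and postnatal day 28, and the normoxia group had 3 libraries from mice left in ambient air. All mice were C57BL/6, 4 weeks old and carried Pgrcre/+, an allele that makes Cre from the progesterone receptor gene. Both groups had the same genotype, and no mice without Cre were part of the comparison. Neutrophils were gated as CD45+, CD11b+ and high for Ly6G. The study set out to see how raised oxygen changes neutrophils of the uterus in these mice.

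Most receptors of this family are single-pass membrane proteins with cysteine-rich repeats that bind trimeric ligands. Some carry a cytoplasmic death domain and can start caspase activation through adaptors such as FADD and TRADD, others recruit TRAF proteins and lead to NF-kappaB, and decoys bind ligand without passing on a death signal. In neutrophils, TNF is known as a priming agent and Fas as a receptor linked to their short life. The mouse has 1 TRAIL receptor with a death domain, Tnfrsf10b, and the decoys Tnfrsf22 and Tnfrsf23, which lie side by side.

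Several of the genes are neighbours in the genome (GRCm38, GENCODE M21). Tnfrsf22 (ENSMUSG00000010751) occupies chromosome 7 from 143634806 to 143649661 and Tnfrsf23 (ENSMUSG00000037613) from 143665809 to 143685872, both on the minus strand and 16.1 kb apart, and their relative Tnfrsf26 is 6.1 kb from Tnfrsf22. Ltbr (ENSMUSG00000030339, chromosome 6, 125306571 to 125313885, minus strand) and Tnfrsf1a (ENSMUSG00000030341, 125349362 to 125362484, plus strand) are 35.5 kb apart. Tnfrsf1b (ENSMUSG00000028599, chromosome 4, 145213463 to 145246870, minus strand) is 20.3 kb from Tnfrsf8, and Tnfrsf14 (ENSMUSG00000042333, 154921933 to 154928563, minus strand) lies farther along the same chromosome. Fas (ENSMUSG00000024778) spans 34290666 to 34327772 on chromosome 19, Tnfrsf10b (ENSMUSG00000022074) 69767472 to 69784411 on chromosome 14, and Cd40 (ENSMUSG00000017652) 165055627 to 165072948 on chromosome 2, all on the plus strand. The decoys resemble each other enough to blur their reads: 18% of the 50-base stretches in Tnfrsf23 transcripts also occurred in Tnfrsf22 transcripts, and 27.4% of those in Tnfrsf22 occurred in transcripts of some other gene, so the separate values of Tnfrsf22 and Tnfrsf23 are uncertain. Tnfrsf26, Tnfrsf1a, Tnfrsf1b, Fas and Ltbr shared 0% by the same measure, Cd40 0.334%, Tnfrsf14 4.25% and Tnfrsf10b 5.8%. An antisense gene absent from the count tables covers 4.14% of the Tnfrsf23 exons.

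Promoters are shown for Fas, Tnfrsf23 and Tnfrsf1b, whose lowest of 6 libraries was the same one, and for Tnfrsf1a, for which it was another. Each runs 5′ to 3′ from 250 bases before to 50 bases after the annotated start (RefSeq, GRCm38.p6), where 6 of the 9 genes had an entry. The windows are chr19:34290409-34290708 on the plus strand for Fas, chr7:143685826-143686125 on the minus strand for Tnfrsf23, chr4:145246821-145247120 on the minus strand for Tnfrsf1b and chr6:125349473-125349772 on the plus strand for Tnfrsf1a. Capitals mark every match, on either strand, to the NF-kappaB outline (GGG and CC with any 5 bases between them), TGANTCA (AP-1) or ACGTG (the core of a hypoxia response element).
Fas: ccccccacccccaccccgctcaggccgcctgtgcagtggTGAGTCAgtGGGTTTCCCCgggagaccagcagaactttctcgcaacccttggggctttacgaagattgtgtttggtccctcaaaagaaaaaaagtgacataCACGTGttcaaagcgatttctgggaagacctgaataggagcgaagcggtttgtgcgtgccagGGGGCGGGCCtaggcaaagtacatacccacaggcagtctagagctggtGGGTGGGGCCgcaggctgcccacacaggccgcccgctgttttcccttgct
Tnfrsf23: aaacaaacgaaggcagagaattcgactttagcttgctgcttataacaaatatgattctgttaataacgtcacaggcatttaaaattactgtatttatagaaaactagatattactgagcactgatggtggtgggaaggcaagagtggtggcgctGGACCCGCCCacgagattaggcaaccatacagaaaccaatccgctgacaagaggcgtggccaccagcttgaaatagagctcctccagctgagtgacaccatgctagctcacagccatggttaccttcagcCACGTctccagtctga
Tnfrsf1b: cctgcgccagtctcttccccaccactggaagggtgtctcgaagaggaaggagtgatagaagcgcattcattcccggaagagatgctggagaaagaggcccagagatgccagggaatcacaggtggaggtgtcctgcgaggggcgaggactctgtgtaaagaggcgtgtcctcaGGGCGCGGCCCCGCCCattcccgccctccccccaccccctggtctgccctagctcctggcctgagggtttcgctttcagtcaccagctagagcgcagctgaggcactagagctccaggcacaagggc
Tnfrsf1a: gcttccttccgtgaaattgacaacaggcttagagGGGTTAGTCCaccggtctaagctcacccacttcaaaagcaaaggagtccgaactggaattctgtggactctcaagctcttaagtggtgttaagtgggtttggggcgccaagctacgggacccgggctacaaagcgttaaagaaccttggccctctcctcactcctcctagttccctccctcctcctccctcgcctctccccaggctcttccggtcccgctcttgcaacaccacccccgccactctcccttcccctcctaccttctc
The Fas window had 3 matches to the NF-kappaB outline, 1 to TGANTCA, and 2 to ACGTG that are the same palindrome read on both strands. Tnfrsf23 had 1 match to the NF-kappaB outline and 1 to ACGTG. To the NF-kappaB outline alone, Tnfrsf1b had 3 overlapping matches and Tnfrsf1a had 1. Over 32851 mouse promoters of the same length, 50.8% held the NF-kappaB outline, 7.8% held TGANTCA and 19.6% held ACGTG. These are matches of letters, not measured binding.

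Depth ranged from 38683293 to 61715617 gene counts per library. Hyperoxia replicate 2 stood apart: chi-square values per degree of freedom were 538 and 726 between it and the other hyperoxia libraries, against 189 between those and 29.8 to 70.8 among normoxia libraries. Its summed level of 10 neutrophil markers was 106678 CPM (CPM being counts divided by the TMM-adjusted library size), against 41962 to 70852 CPM in the other 5 libraries. Its 8 epithelial markers summed to 14.5 CPM, against 81.4 to 249 CPM elsewhere. All 10 neutrophil markers were present, with Ly6g at 196, 351 and 38.9 CPM in hyperoxia and 146, 53.4 and 72.7 CPM in normoxia. In hyperoxia replicate 2, S100a8 and S100a9 made up most of the neutrophil marker sum, at 44970 and 38862.5 CPM. Ly6g, S100a8, S100a9, Retnlg and Mmp9 were highest in that library. Csf3r (1317 CPM) and Il1r2 (4823 CPM) were lowest there, and the rest of the neutrophil markers lay between. For each receptor gene that turns on hyperoxia replicate 2, the difference is given below with and without it.

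Per length, the TNF receptors led in both groups, and the TRAIL death receptor had the lowest mean. Levels in this paragraph are CPM per kilobase of merged exons. Tnfrsf1a averaged 253 ± 45.7 in hyperoxia and 310.0 ± 45.7 in normoxia, Tnfrsf1b 186 ± 72.9 and 162 ± 25.9, and Fas 79.4 ± 26.8 and 91.5 ± 0.969 (SD, n = 3 each). The decoy Tnfrsf23 averaged 31.3 ± 15.6 in hyperoxia and 39.9 ± 2.42 in normoxia, and Ltbr 22.5 ± 10.00 and 26.6 ± 3.86. The other 4 genes were all below 2.5 in every library. In normoxia the library ranges of all neighbours in the order Tnfrsf1a, Tnfrsf1b, Fas, Tnfrsf23, Ltbr, Tnfrsf22, Tnfrsf14, Cd40 and Tnfrsf10b were separate. In hyperoxia the ranges of Tnfrsf1a and Tnfrsf1b overlapped, as did those of Tnfrsf23 and Ltbr, of Tnfrsf22 and Tnfrsf14, and of Tnfrsf14 and Tnfrsf10b. Cd40, at 1.41 ± 0.636, stood in the sixth place with a range that overlapped Tnfrsf22 at 1.19 ± 0.725. Averaged over all libraries, 98.3% of tested genes had a lower level per length than Tnfrsf1a, 97.6% than Tnfrsf1b, 96.0% than Fas and 92.5% than Tnfrsf23, but 23.8% than Tnfrsf10b.

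**Figure D1:**
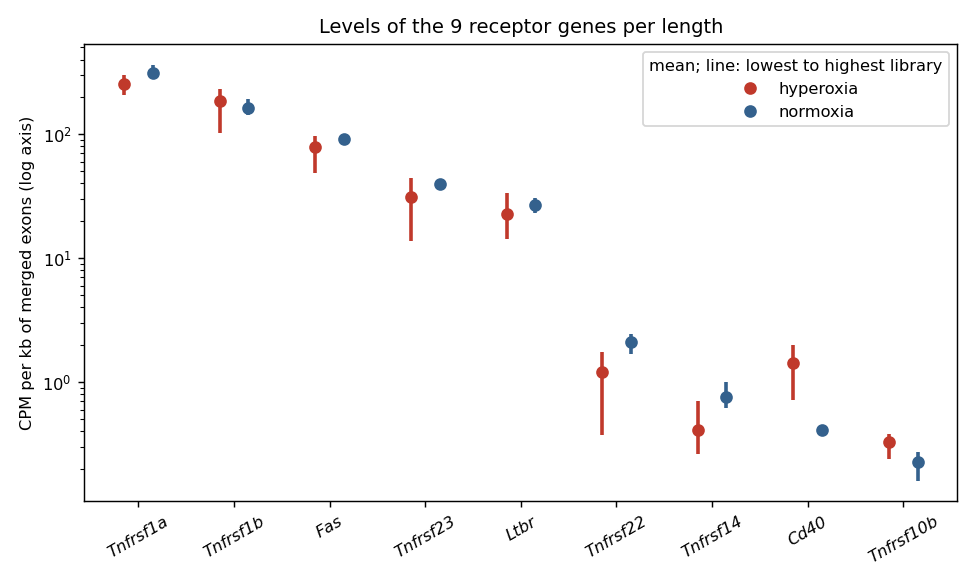
Levels of the 9 receptor genes in CPM per kilobase of merged exons on a log axis, hyperoxia (red) left of normoxia (blue), with points at group means and lines between the lowest and highest of 3 libraries. Tnfrsf1a has the highest and Tnfrsf10b the lowest mean in both groups, with Tnfrsf10b and Tnfrsf14 overlapping in hyperoxia, and Cd40 moves up the order in hyperoxia.

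In edgeR's quasi-likelihood test none of the 9 passed an adjusted p of 0.05, where 0 of 12908 genes passed (0.00% of all tested). At an unadjusted p under 0.05, 1 of the 9 was higher in hyperoxia and 0 were lower, beside 9.10% and 3.91% of all tested genes. That gene was Cd40. DESeq2, which called 513 genes on the same counts, 4.06% of those with an adjusted p (3.65% higher and 0.411% lower in hyperoxia), called Cd40 as higher and none of the other 8. The median log2 difference of the 9 genes was -0.24, beside 0.04 over all tested genes, with 3 genes above 0 and 6 below.

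Cd40, the receptor through which T cells license B cells, dendritic cells and macrophages, was higher in hyperoxia in 3 of 3 libraries. It had 97, 336 and 319 counts in the hyperoxia libraries, against 57, 66 and 54 in the normoxia libraries. Scaled for depth these were 2.45, 5.27 and 6.72 CPM in hyperoxia and 1.33, 1.46 and 1.39 CPM in normoxia, so that the groups did not overlap and hyperoxia replicate 1 lay nearest to normoxia. Cd40 was the 1 gene of the 9 without overlap. Among all tested genes 9.57% lay wholly higher in hyperoxia and 10.3% wholly lower, 19.9% in either direction. The means were 4.81 ± 2.17 CPM in hyperoxia against 1.40 ± 0.0653 CPM in normoxia (SD, n = 3 each), a 3.45-fold or log2 difference of 1.79 ± 0.39 (SE). The adjusted p was 0.140 in edgeR, with an unadjusted p of 0.00167, and 0.00150 in DESeq2. Without hyperoxia replicate 1 the log2 difference was 2.13 and edgeR's adjusted p 0.0346, and with no filter on low counts 1.80 and 0.0243. Across all 14 alternatives the log2 difference stayed between 1.47 and 2.13, with adjusted p from 0.00150 to 0.542.

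Markers of cells that carry CD40 were measured in the same libraries. Of all 12908 tested genes, 6932 had a log2 difference above 0 and 9.57% lay wholly higher in hyperoxia. Of 9 MHC class II and dendritic cell markers 8 were tested, all with a mean difference above 0, and 7 had groups that do not overlap. Their summed level was 691 to 2078 CPM in hyperoxia and 456 to 493 CPM in normoxia. Of the dendritic cell genes, Flt3 had overlapping groups and Clec9a was not tested. Xcr1 had only 20, 32 and 55 counts in hyperoxia and 9, 12 and 13 in normoxia. Of 12 monocyte and macrophage markers, 11 were above 0 and 8 had groups without overlap. Groups overlapped for Csf1r, at a log2 difference of -0.005, Cd68 (0.06), Adgre1 (0.63) and Mrc1 (2.26). Monocyte and macrophage markers summed to 1868 to 2987 CPM in hyperoxia and 1396 to 1498 CPM in normoxia. Apoe and Cd68 made up most of that sum. Apoe was at 834, 1655 and 1562 CPM in hyperoxia and 553, 587 and 521 CPM in normoxia. Cd68 was at 586, 567 and 580 CPM in hyperoxia and 583, 509 and 569 CPM in normoxia. B cell markers, 5 of 8 tested and all 5 above 0 but 1 without overlap of the groups, summed to 29.4 to 54.0 CPM in hyperoxia and 30.5 to 31.8 CPM in normoxia, with hyperoxia replicate 1 below every normoxia library. Ighm made up most of this sum, at 27.4, 34.1 and 47.6 CPM in hyperoxia and 29.1, 29.7 and 28.7 CPM in normoxia. Of the defining B cell genes, Pax5 had 0, 2 and 2 counts in the hyperoxia libraries and 0 in every normoxia library. Cd79a had 25, 178 and 98 counts in hyperoxia and 22, 33 and 25 in normoxia. Cd79b had 28, 158 and 122 counts in hyperoxia and 24, 31 and 37 in normoxia. None of the markers in these 3 lists was at 0 in every library. Markers of vessels and stroma were measured as well. Endothelial markers, 9 of 9 above 0 and 7 without overlap, summed to 29.9 to 66.8 CPM in hyperoxia and 10.7 to 17.5 CPM in normoxia. Stromal markers, 8 of 8 tested above 0 but 2 without overlap, summed to 35.3 to 244 CPM in hyperoxia and 18.3 to 56.8 CPM in normoxia. The stromal sums overlapped through hyperoxia replicate 1. T and NK cell markers, 8 of 10 above 0 but 1 without overlap, summed to 6.55 to 22.9 CPM in hyperoxia and 4.99 to 9.53 CPM in normoxia. Hyperoxia replicate 1 was the lowest and replicate 3 the highest hyperoxia library for Cd40 and for the MHC class II, macrophage, B cell, T and NK cell and stromal sums, whereas the endothelial sum was highest in replicate 2. The part of any of these cell types in the Cd40 difference was not tested. In bulk libraries more cells of a type and more RNA per cell cannot be told apart.

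**Figure D2:**
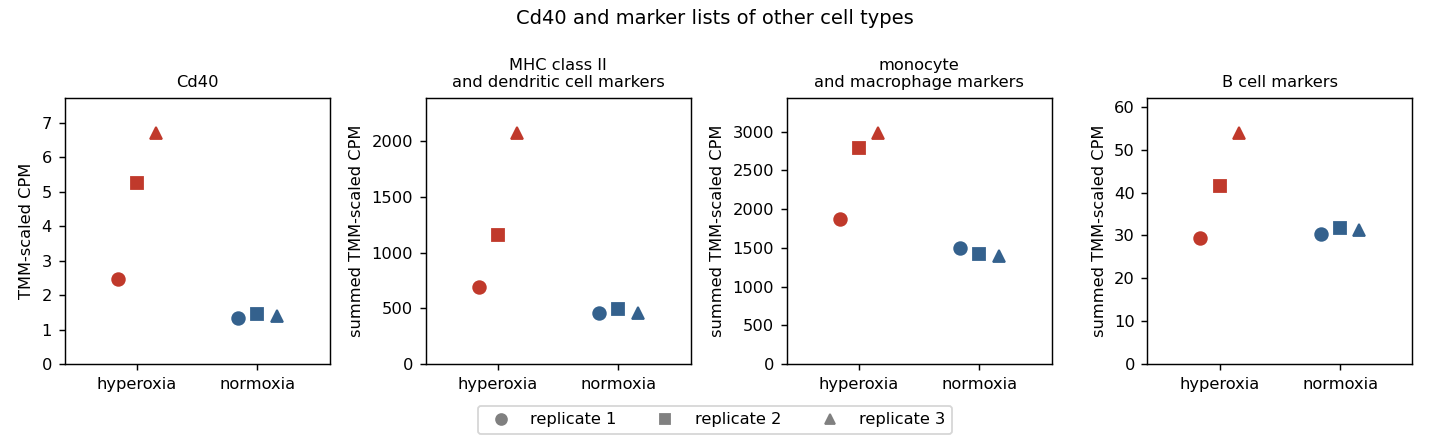
Cd40 in TMM-scaled CPM and the summed CPM of 3 marker lists, 1 point per library, hyperoxia (red) left of normoxia (blue), with point shape for the replicate number, which pairs nothing across groups. Hyperoxia replicate 1 is the lowest and replicate 3 the highest hyperoxia library in all 4 panels.

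Neither TNF receptor passed the test. Tnfrsf1a, the widely used TNF receptor with a death domain, stood at 771, 658 and 534 CPM in hyperoxia and at 939.7, 741 and 729.6 CPM in normoxia. These ranges overlap through hyperoxia replicate 1. With libraries scaled by total counts alone, Tnfrsf1a had 690.0, 680.5 and 566 CPM in hyperoxia and 895, 786 and 734 CPM in normoxia, and the groups did not overlap. In edgeR the log2 difference was -0.30 ± 0.23 (SE, adjusted p = 0.635). It was -0.10 without normoxia replicate 1 and -0.17 without hyperoxia replicate 3. Tnfrsf1b, the TNF receptor of leukocytes and endothelium that signals through TRAFs, stood at 856, 390.2 and 887 CPM in hyperoxia and at 731, 573 and 549 CPM in normoxia. The hyperoxia libraries thus held both the lowest and the highest values, and edgeR's log2 difference was 0.20 ± 0.33 (SE, adjusted p = 0.845). Without hyperoxia replicate 2 it was 0.52, without replicate 1 it was 0.07 and without replicate 3 it was 0.01, and without normoxia replicate 1 it was 0.40.

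The balance of these receptors was spread more widely among hyperoxia libraries, as were the levels of 78.5% of all tested genes by coefficient of variation. Tnfrsf1b had 1.11, 0.593 and 1.66 reads for each Tnfrsf1a read in the hyperoxia libraries and 0.778, 0.774 and 0.752 in the normoxia libraries. Means were 1.12 ± 0.534 in hyperoxia and 0.768 ± 0.0140 in normoxia (SD, n = 3 each). The ratio is of reads not scaled by length and is read between libraries only. Without hyperoxia replicate 2 the hyperoxia mean was 1.39. The groups overlap, because hyperoxia replicate 2 lay below all normoxia libraries and the other hyperoxia libraries above them.

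**Figure D3:**
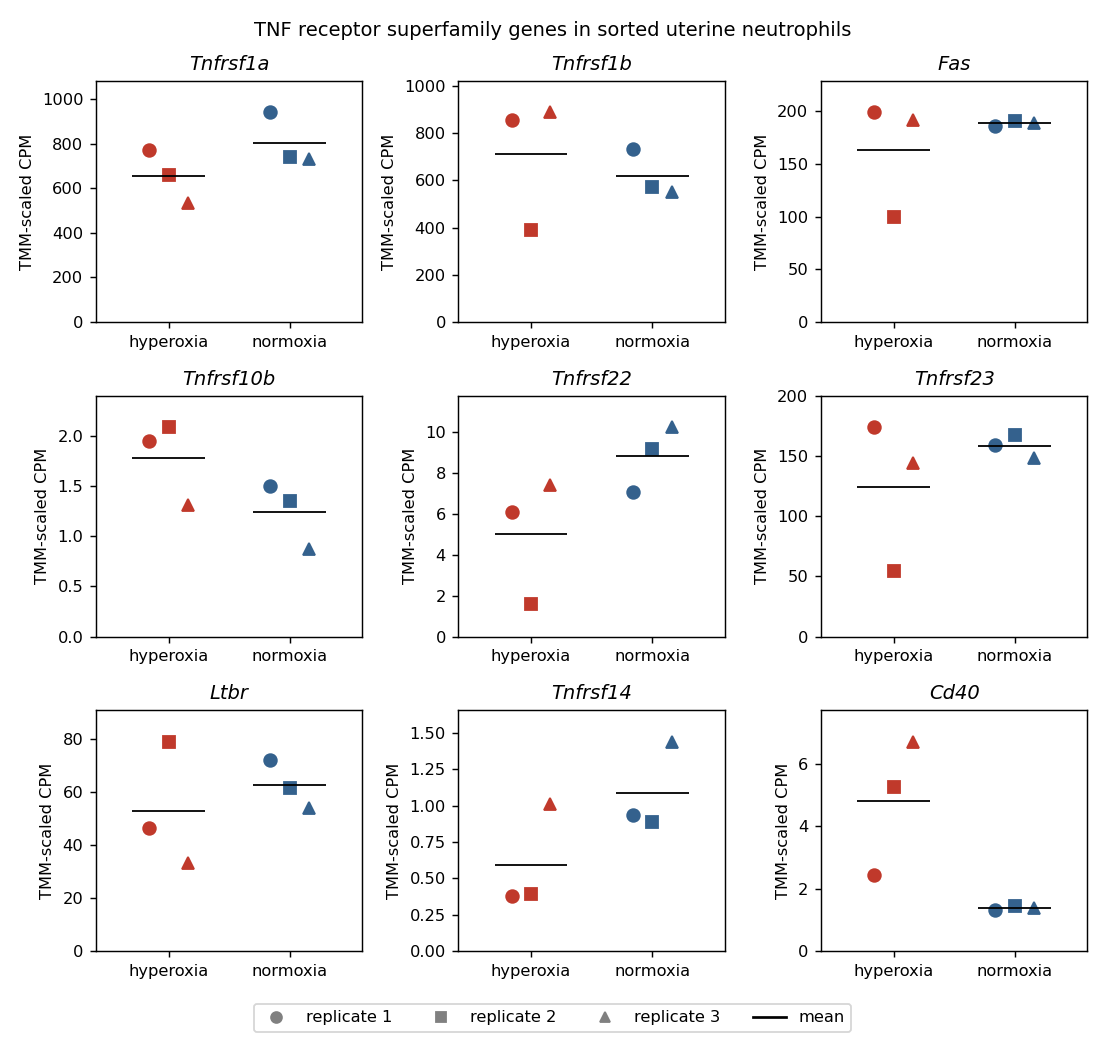
TMM-scaled CPM of each receptor gene in every library, hyperoxia (red) left of normoxia (blue), with a line at each group mean and point shape for the replicate number. Cd40 is the panel in which all hyperoxia libraries lie above all normoxia libraries, and the square of hyperoxia replicate 2 lies lowest for Tnfrsf1b, Fas, Tnfrsf22 and Tnfrsf23.

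The death receptors stood far apart in level, Fas having the third highest mean per length and Tnfrsf10b the lowest, with a hyperoxia range that overlaps Tnfrsf14. Fas, which triggers apoptosis when bound by Fas ligand, had 199, 99.99 and 192 CPM in hyperoxia, against 187, 190.5 and 189 CPM in normoxia. Apart from hyperoxia replicate 2 the values of the groups were within a narrow band, and the normoxia libraries had a coefficient of variation of 1.06%. In edgeR the log2 difference was -0.20 ± 0.28 (SE, adjusted p = 0.804), and 0.07 without hyperoxia replicate 2. Tnfrsf10b, the TRAIL receptor with a death domain, had 77, 133 and 62 counts in hyperoxia and 64, 61 and 34 in normoxia. This came to 1.95, 2.08 and 1.31 CPM in hyperoxia and 1.498, 1.35 and 0.874 CPM in normoxia, with overlapping groups and a log2 difference of 0.52 ± 0.37 (SE, adjusted p of 0.595 in edgeR). Counts this low limit what could be detected for Tnfrsf10b.

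Per length, the decoy Tnfrsf23 stood above the death-domain TRAIL receptor in every library, with group means of 31.3 CPM per kilobase in hyperoxia and 39.9 in normoxia, against 0.326 in hyperoxia and 0.228 in normoxia for Tnfrsf10b. The decoy Tnfrsf22 was at 0.375 to 1.76 CPM per kilobase in hyperoxia, a range that overlaps the 0.240 to 0.382 of Tnfrsf10b there, and at 1.68 to 2.43 in normoxia, above the 0.160 to 0.275 of Tnfrsf10b. Tnfrsf23 had 174, 54.8 and 144 CPM in hyperoxia and 159, 168 and 148 CPM in normoxia. Its log2 difference was -0.35 ± 0.38 (SE, adjusted p of 0.744 in edgeR) and 0.03 without hyperoxia replicate 2. Tnfrsf22 had 6.10, 1.58 and 7.41 CPM in hyperoxia and 7.07, 9.16 and 10.2 CPM in normoxia, a log2 difference of -0.81 ± 0.49 (SE, adjusted p of 0.521 in edgeR). Hyperoxia replicate 1 lay below all normoxia libraries too, whereas replicate 3 lay within their range. Without hyperoxia replicate 2 the difference was -0.37, and without replicate 3 it was -1.21.

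Not scaled by length, reads of both decoys together numbered 92.4, 27.1 and 116 for each Tnfrsf10b read in the hyperoxia libraries and 111, 131 and 181.5 in the normoxia libraries. The means of 78.4 ± 46.0 in hyperoxia and 141 ± 36.5 in normoxia (SD over 3 libraries each) belong to groups that overlap, and the hyperoxia mean was 104 without hyperoxia replicate 2. Between the decoys, Tnfrsf23 had 19.4 to 34.6 reads for each Tnfrsf22 read in hyperoxia and 14.5 to 22.5 in normoxia. How far reads that fit both genes move this ratio was not tested.

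Ltbr, which binds membrane lymphotoxin and LIGHT and leads to the alternative NF-kappaB pathway, had 46.4, 79.1 and 33.4 CPM in hyperoxia and 72.2, 61.6 and 54.1 CPM in normoxia. Here hyperoxia replicate 2 was the highest of all libraries and the other hyperoxia libraries the lowest. The log2 difference was -0.24 ± 0.32 (SE, adjusted p of 0.796 in edgeR), -0.63 without hyperoxia replicate 2, -0.11 without replicate 1 and 0.004 without replicate 3. Tnfrsf14, a receptor for LIGHT that also engages BTLA, had 15, 25 and 48 counts in hyperoxia and 40, 40 and 56 in normoxia. Its levels were 0.380, 0.392 and 1.01 CPM in hyperoxia and 0.936, 0.887 and 1.44 CPM in normoxia, a log2 difference of -0.87 ± 0.52 (SE, adjusted p of 0.513 in edgeR). The groups of Tnfrsf14 overlapped through hyperoxia replicate 3, without which the difference was -1.49. With 1 of the other libraries left out it lay between -1.004 and -0.57, nearest to 0 without normoxia replicate 3.

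**Figure D4:**
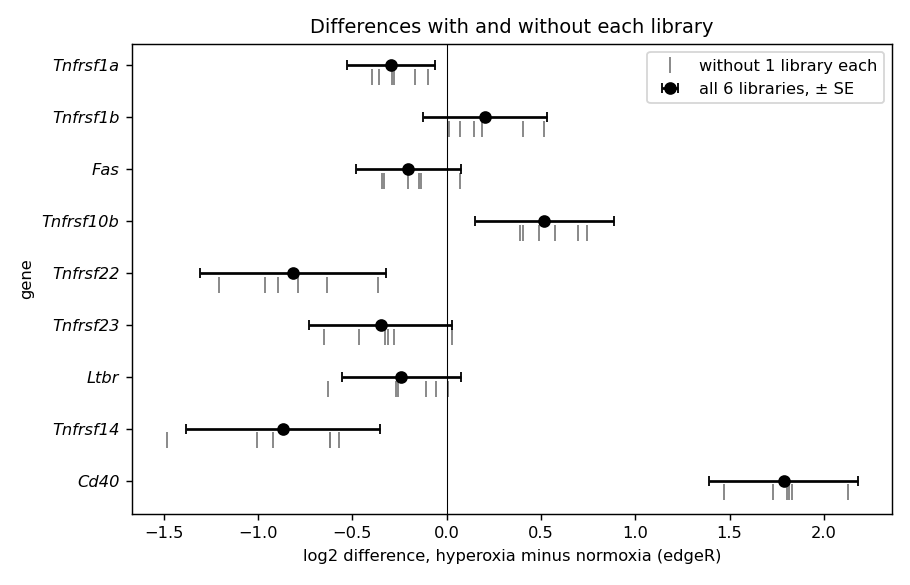
Log2 difference between hyperoxia and normoxia for each receptor gene from edgeR, with its SE (black) and the values when each library is left out in turn (grey ticks). Cd40 lies at 1.79 and keeps its sign, while Fas, Tnfrsf23 and Ltbr reach 0 or above without 1 hyperoxia library.

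Library by library, Tnfrsf1b, Fas, Tnfrsf22 and Tnfrsf23 all had their lowest value in hyperoxia replicate 2, which was the lowest library for 26.0% of all tested genes. Relative to the normoxia mean on the log2 CPM scale, this library was at -0.65 for Tnfrsf1b, -0.92 for Fas, -2.43 for Tnfrsf22 and -1.53 for Tnfrsf23. The same library was at 0.35 for Ltbr and 1.89 for Cd40. The coefficient of variation was larger in hyperoxia for 8 of the 9 genes, Tnfrsf10b being the exception, beside 78.5% of all tested genes. Its median over the 9 was 44.4% in hyperoxia and 14.7% in normoxia, beside 32.6% and 17.2% over all tested genes.

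**Figure D5:**
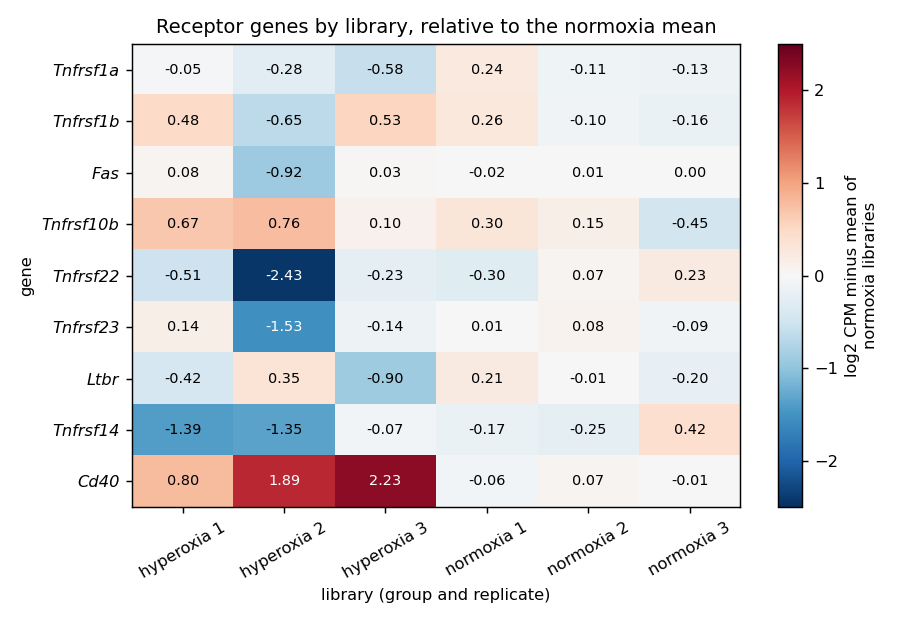
Log2 CPM of each receptor gene in each library minus the mean of the 3 normoxia libraries, with red above and blue below that mean. Hyperoxia replicate 2 is above that mean for Tnfrsf10b, Ltbr and Cd40 and below it for the other 6 genes.

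Genes with the most similar pattern were sought by Pearson's r of log2 CPM over the 6 libraries. The search covered 5178 tested genes whose average log2 CPM was 3 or more. Genes known only by a model name (Gm or Rik) or an Ensembl ID were left out. The values are a description, from 6 points that share the same libraries and depth. Nearest to Tnfrsf1a was Prr5l, with an r of 0.998, followed by Arhgap25 and Cnot2. Tnfrsf23 was followed by Oxsr1, at an r of 0.997, then by its neighbour on chromosome 7, Tnfrsf26, at 0.996, and Fnip1. Tnfrsf26 had 144, 34.2 and 116 CPM in hyperoxia and 128, 155 and 126 CPM in normoxia, and without hyperoxia replicate 2 its r with Tnfrsf23 was 0.89 over 5 libraries. Nearest to Ltbr were Wdr37, at an r of 0.987, Calm3 and Rnf41.

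Among the other 19 receptors of the superfamily, 13 were tested, with a median log2 difference of 0.12. Beside 9.10% higher and 3.91% lower of all tested genes, 1 of the 13 was higher at an unadjusted p under 0.05 and 1 lower. The higher gene was Tnfrsf11a and the lower one Relt. DESeq2 also called both, beside 3.65% higher and 0.411% lower of the genes it gave an adjusted p. Tnfrsf11a, known as RANK and important in osteoclasts and dendritic cells, had 1.72, 2.65 and 3.20 CPM in hyperoxia against 1.03, 0.666 and 0.720 CPM in normoxia, without overlap. Its log2 difference was 1.65 ± 0.38 (SE), and its adjusted p was 0.1495 in edgeR and 0.00480 in DESeq2. Relt had 64.4, 66.7 and 52.8 CPM in hyperoxia and 112, 102 and 94.4 CPM in normoxia, and edgeR's log2 difference was -0.75 ± 0.20 (SE, adjusted p = 0.182; 0.0453 in DESeq2). Relt is a receptor of lymphoid tissues, and its groups did not overlap. Of all tested genes, 9.57% lay wholly higher in hyperoxia and 10.3% wholly lower. Tnfrsf11b, the soluble decoy osteoprotegerin, came next by p, with a log2 difference of 2.15 ± 1.08 (SE) from at most 1.18 CPM in a library, and 1.23 without hyperoxia replicate 2.

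Ligands of the 9 receptors were measured in the same libraries, and 6 of 9 passed the filter. Of these 6, 0 higher and 1 lower had an unadjusted p below 0.05, beside 9.10% and 3.91% of all tested genes. Tnfsf14, which encodes LIGHT, the ligand of Ltbr and Tnfrsf14, had 125, 103 and 156 CPM in hyperoxia and 222, 179 and 178 CPM in normoxia. The groups of Tnfsf14 did not overlap, beside 10.3% of all tested genes wholly lower in hyperoxia. Its log2 difference was -0.59 ± 0.23 (SE, adjusted p of 0.329 in edgeR). Ltb and Fasl came next by p, with log2 differences of -0.32 ± 0.24 and 0.66 ± 0.69 (SE). Ltb was at -0.53 without hyperoxia replicate 2 and -0.11 without replicate 1, and Fasl at -0.37 without replicate 3. Tnf itself had 229, 112 and 928 CPM in hyperoxia and 298, 491.5 and 498 CPM in normoxia, with both extremes in hyperoxia. Cd40lg, the ligand of CD40, had 0, 23 and 10 counts in hyperoxia and 0, 1 and 3 in normoxia and was not tested.

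The 11 genes of the death domain adaptor and caspase-8 module had a median log2 difference of 0.05 and 0 calls in DESeq2. Beside 9.10% higher and 3.91% lower of all tested genes, 3 of the 11 were higher and 0 lower by an unadjusted p below 0.05. These were Fadd, the adaptor that joins death domains to caspase-8, at 0.734, 0.972 and 1.58 CPM in hyperoxia and 0.421, 0.466 and 0.463 CPM in normoxia, and the necroptosis genes Mlkl and Ripk3. Means of Ripk3 were 55.0 ± 9.59 CPM in hyperoxia against 39.7 ± 1.65 CPM in normoxia, and those of Mlkl 5.60 ± 2.53 CPM in hyperoxia against 2.86 ± 1.04 CPM in normoxia (SD, n = 3 each). Their adjusted p in edgeR was 0.292 for Fadd, 0.364 for Mlkl and 0.372 for Ripk3. Fadd had only 29, 62 and 75 counts in hyperoxia and 18, 21 and 18 in normoxia, so counting error limits it. The log2 difference of Mlkl was 0.97 ± 0.41 (SE), and 0.59 without hyperoxia replicate 2. The groups of Mlkl overlapped, whereas those of Fadd and Ripk3 did not, beside 9.57% of all tested genes wholly higher in hyperoxia.

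All 14 genes of the TRAF, cIAP and A20 module were tested, with a median log2 difference of -0.20. By an unadjusted p below 0.05, 1 was higher and 0 lower, beside 9.10% and 3.91% of all tested genes. Groups did not overlap for 1 gene higher (Traf1) and 3 lower (Traf3, Traf6 and Chuk), beside 9.57% and 10.3% of all tested genes. Traf1, an inducible adaptor of Tnfrsf1b and CD40, had 51.5, 35.2 and 93.7 CPM in hyperoxia and 24.3, 29.2 and 28.9 CPM in normoxia, groups that do not overlap. Its log2 difference was 1.13 ± 0.34 (SE), and its adjusted p 0.239 by edgeR and 0.0444 by DESeq2. Without hyperoxia replicate 3 the difference was 0.66. Map3k14, the kinase of the alternative NF-kappaB pathway, and Traf3, which keeps that kinase low, had log2 differences of -0.56 ± 0.27 and -0.40 ± 0.21 (SE), with adjusted p of 0.422 and 0.451 in edgeR. Without hyperoxia replicate 2 these were -0.37 and -0.27, and without replicate 1 -0.89 and -0.54. Tnfaip3, which encodes the TNF-induced brake A20, had 887, 314 and 991 CPM in hyperoxia and 654, 678 and 687 CPM in normoxia, and was lowest in hyperoxia replicate 2 as Tnfrsf1b and Fas were.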

How the data were processed

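Libraries of sorted uterine neutrophils used Ovation and NexteraXT reagents, according to the labels. The authors deposited raw counts per Ensembl gene for each of 6 libraries. STAR 2.4.2a, genome build GRCm38 and DESeq2 1.16.1 are named per the submitters' processing notes, while the counter, its strand setting and its annotation are not given in the sources used here. Sense and antisense reads may therefore be mixed, and reads that fit several similar genes may be lost or misplaced.

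Symbols, coordinates and exon lengths came from GENCODE M21, which matched 42462 of 43432 IDs. Groups follow the housing condition in the labels. Nothing states that libraries came from separate animals, so a p-value reflects only how much these samples vary, which could be technical. No replicate pair agreed within sampling noise (chi-square per degree of freedom of at least 29.8).

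Counts were analysed in edgeR 4.0.16 (R 4.3.3) with filterByExpr, TMM factors (0.895 to 1.06) and a robust, two-sided quasi-likelihood test, adjusted by Benjamini-Hochberg over all 12908 genes tested. CPM values use TMM-scaled library sizes. Alternatives were DESeq2 1.42.0, limma-voom (limma 3.58.1) with and without quality weights, other scaling factors and filters, a threshold of 0.1, another gene length, and each library left out. The edgeR procedure was tested on simulated data. The members and lists were chosen with earlier results of these data known. Text names all 9 members, the 3 genes of lowest p in each list, marker genes, and the 3 genes nearest in pattern to the 3 members of lowest p whose average log2 CPM was 3 or more. Tnf, Cd40lg, Tnfaip3 and the CPM of Tnfrsf26 were added after their values were seen. Counts carry counting error as well, since PCR copies are not independent molecules. Part of the shared genotype and the counts of 1 marker gene are not reported here.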

Additional observations from a re-analysis of the deposited data

How the results depend on the processing

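Over 14 alternatives, 120 of 126 values of the 9 receptor genes kept their direction and their side of the threshold. Reversed were Fas (0.071) and Tnfrsf23 (0.026) without hyperoxia replicate 2 and Ltbr (0.004) without hyperoxia replicate 3, in edgeR. The ranges with 1 library left out were -0.35 to 0.071 for Fas, -0.65 to 0.026 for Tnfrsf23 and -0.63 to 0.004 for Ltbr. Fasl was -0.37 without hyperoxia replicate 3, in a range of -0.37 to 1.09. The causes were not tested.

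Cd40 passed in DESeq2 (log2 difference 1.79), with no filter (1.80) and without hyperoxia replicate 1 (2.13), and ranged from 1.47 to 2.13 with 1 library left out. It was thus the 1 member called in each of these 3 alternatives, against 0 in edgeR with all libraries, and the leave-one-out range was 0 to 1. Over all genes edgeR called 0, at an adjusted p of 0.1 it called 30, with no filter 214, and with 1 library left out 0 to 176, the highest without hyperoxia replicate 1. DESeq2 called 513 and limma-voom with quality weights 36.

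With the longest transcript as length, 2 of the 9 genes changed place in hyperoxia, Tnfrsf10b and Tnfrsf14. Leaving out 1 hyperoxia library changed 0 to 2 places, between Cd40 and Tnfrsf22 without replicate 2 and between Tnfrsf10b and Tnfrsf14 without replicate 3. No paired analysis was possible because the labels give the groups no shared replicate numbers. With Tnfrsf14 at 15 counts, Tnfrsf10b at 34 counts and Cd40 at 54 counts in their shallowest values, counting error limits all of these.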
